A study of Mus musculus with 1699 samples.

Results

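The genes described here are the 6 that set the glutamate and GABA transmitter phenotype of a neuron, out of 39468 gene entries measured in each cell. They were taken by name: Slc17a6, Slc17a7 and Slc17a8 (the vesicular glutamate transporters VGLUT2, VGLUT1 and VGLUT3), Slc32a1 (the vesicular GABA transporter VGAT), and Gad1 and Gad2 (the GABA synthesis enzymes GAD67 and GAD65). Each was read in single cells for its co-expression with the others and with Th, the tyrosine hydroxylase that makes the dopamine precursor, and a gene was counted in a cell when its RPKM was over 10. RPKM is the read number scaled by the length of the gene model and by the reads of the cell, so that levels of different genes can be set side by side. Such comparisons are approximate: for Gad2 the reads per RPKM relative to Th had a median of 3.41 and ran from 0.359 to 6.64 between cells.

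A neuron releases glutamate only when a vesicular glutamate transporter loads it into synaptic vesicles, and GABA or glycine are loaded by VGAT. GAD67 and GAD65 make GABA from glutamate. Dopamine is loaded by the vesicular monoamine transporter, the product of Slc18a2, and taken back up by the dopamine transporter, the product of Slc6a3. Midbrain dopamine neurons are known to include cells that also release glutamate, mainly through VGLUT2, and cells that release GABA, for which routes without VGAT or GAD have been described.

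The study sorted GFP-positive cells from dissected mouse ventral midbrain and sequenced 1699 of them one by one with Smart-seq2. Pitx3 encodes a transcription factor of midbrain dopamine neurons, and the mice carry eGFP knocked in at that gene. Pitx3eGFP/wt cells, with 1 intact Pitx3 allele, came from 3 embryonic ages (E13.5, E15.5, E18.5) and 3 postnatal ones (P1, P7, P90), and Pitx3eGFP/eGFP cells, with no intact allele, from E13.5 and P1. Male and female animals were used and several per stage gave cells. In the paper, neurons with high Slc6a3 were underrepresented among the sequenced adult cells compared with tissue sections. It holds losses of long-projecting Th neurons in dissociation and sorting to be the most likely reason. All shares given here are therefore of the sequenced cells, not of the neurons in the tissue. Every cell had passed a gate on GFP, no wild-type cell is in the series, and the labels name no animal.

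Each stage and genotype was therefore 1 sample, and no test between samples could be made. Shares of cells are given with exact Clopper-Pearson 95% intervals and differences between shares with Newcombe 95% intervals, which cover counting error only. For some counts of 0 the share that 3 counts would make is given, which is under the exact upper limit. A total of 1487 cells were kept, 1149 Pitx3eGFP/wt and 338 Pitx3eGFP/eGFP, after cells in oligodendrocyte-like clusters had been left out. Median reads per cell ran from 1140978 (E18.5) to 2354720 (E13.5) in Pitx3eGFP/wt cells and were 753256 and 1393891 in Pitx3eGFP/eGFP cells at E13.5 and P1. The sorted cells carried the markers of neurons: all 6 neuron markers were over 10 in most cells of every group, and 7 to 9 of 10 midbrain dopamine neuron markers were. The dissociation kit changed between E18.5 and P1 and again between P7 and P90, so across these steps kit and age cannot be told apart. Among Pitx3eGFP/wt cells, all at E18.5 and P90 carried spike-in RNA, none at E13.5, E15.5 and P7 did, and P1 held both kinds. Spike-in and age can thus not be told apart from E15.5 to E18.5, from P7 to P90 or from E13.5 to P90.

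Because the families are paralogous, sequence shared within a family is shown first, since reads of 43 bases from shared stretches could not have been assigned to 1 gene. Positions are on GRCm38 (mm10), by GENCODE. The longest stretch common to the coding transcripts of Slc17a6 (chr7:51622006-51671119, plus strand) and Slc17a8 (chr10:89574020-89621253, minus strand) was 25 bases. It lies in coding exon 2 of both genes, at chr7:51625418-51625442 and chr10:89606668-89606692. Slc17a6 and Slc17a7 (chr7:45163949-45176142, plus strand) shared 21 bases at most, also in coding exon 2 of both, at chr7:51625462-51625482 and chr7:45168896-45168916. Gad1 (chr2:70553072-70602014, plus strand) and Gad2 (chr2:22622205-22693874, plus strand) shared 17 bases, in coding exons 13 and 12, at chr2:70593454-70593470 and chr2:22673966-22673982. The runs, 5′ to 3′ and in capitals throughout because every base is identical in both genes, are as follows.
Slc17a6 and Slc17a8: TCATGAGCGGCCTCGGCTTCTGCAT
Slc17a6 and Slc17a7: AACCTGGGCGTGGCCATCGTG
Gad1 and Gad2: CCTCACAAGATGATGGG
In no pair did any stretch as long as a read occur in both genes (0 shared words of 43 bases). A read from Gad1 could thus be told from one of Gad2, and a read from Slc17a6 from one of its paralogs.

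The study also detected Gad2 in tissue sections with padlock probes, and their target sequences show the same separation from Gad1. Below, capitals mark the longest stretch that also occurs in a Gad1 transcript. The targets are 40 bases long, and none occurs in Gad1.
Gad2 target 1: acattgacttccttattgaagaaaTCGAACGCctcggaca
Gad2 target 2: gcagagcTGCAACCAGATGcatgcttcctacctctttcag
Gad2 target 3: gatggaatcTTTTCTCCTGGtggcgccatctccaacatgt
Target 1 lies in coding exon 16 (chr2:22690297-22690336) and shares 8 bases with Gad1. Target 2 lies in coding exon 13 (chr2:22681296-22681335) and shares 12 bases. Target 3 spans the junction of exon 6 (chr2:22630042-22630060) and exon 7 (chr2:22634930-22634950) and shares 11.

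Slc17a6 was by far the most widespread of the 6 genes. In the embryonic Pitx3eGFP/wt groups it was over 10 in 51.8% (43.2 to 60.3), 49.3% (40.7 to 57.9) and 62.03% (54.7 to 69.01) of cells in order of age. After birth the share was 66.04% for P1 (60.03 to 71.7), 60% for P7 (49.1 to 70.2) and 89.2% for P90 (85.3 to 92.4). P90 stood above every other group: it was 37.4 percentage points above E13.5 (28.4 to 46.2) and 29.2 points above P7 (18.97 to 39.97). Adult neurons with high Slc6a3 were underrepresented among the sequenced cells, and the part of this in the P90 shares was not tested. Among the earlier stages the step from E15.5 to E18.5 was the 1 neighbouring step whose interval left out 0, at 12.7 points (1.89 to 23.3). Spike-in RNA also changed at this step, as it did between P7 and P90.

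The level of Slc17a6 was also highest at P90. Mean RPKM over all kept cells was 53.4, 64.5, 59.997, 88.1, 87.7 and 207.1 from E13.5 to P90. Within the cells that had the gene over 10, the median was 74.99 at E13.5 and 215.2 at P90, so the P90 cells were higher in level as well as in number. The highest single cell at P90 reached 764. The 4 sets of P90 cells whose titles share a number gave shares of 87.2%, 89.1%, 93.5% and 84.8%, and each of these lay above the share of every earlier group. Ordering all 8 groups by share put P90 first, 13.1 points above Pitx3eGFP/eGFP cells at P1 (6.04 to 20.9), and no other neighbours in that order differed beyond counting error.

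**Figure D1:**
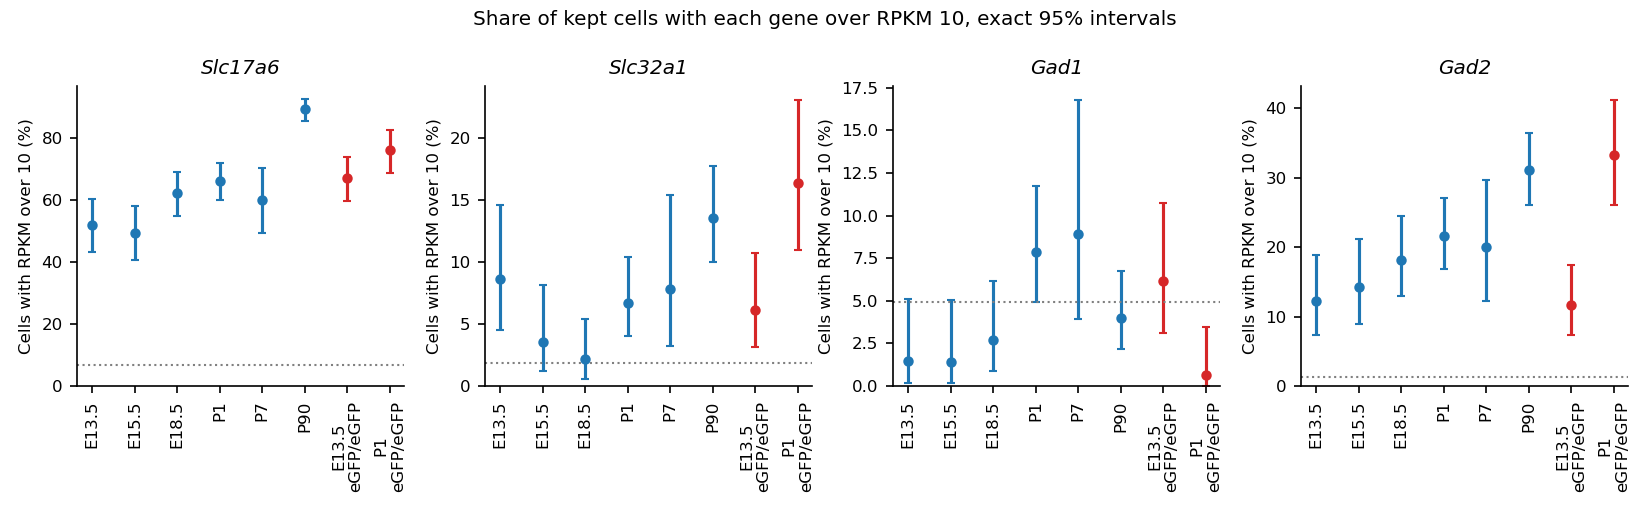
Share of kept cells with Slc17a6, Slc32a1, Gad1 and Gad2 over an RPKM of 10 (y axis, %, each panel with its own scale from 0) by stage, Pitx3eGFP/wt in blue and Pitx3eGFP/eGFP in red, with exact 95% intervals as bars. The dotted line is the share in oligodendrocyte-like cells that were left out, which Slc17a6 and Gad2 exceed in every group, while the Gad1 shares lie on both sides of its line (4.94%).

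The other glutamate transporters were close to absent at this threshold. Slc17a7, the transporter typical of cortical glutamate neurons, was over 10 in 2 of 1487 kept cells, 1 at E18.5 and 1 at P1, and its highest value was 18.9. Slc17a8 was over 10 in 4 of 1487 cells, 2 at E18.5 and 2 at P90, with a highest value of 29.9. In Pitx3eGFP/eGFP cells neither was over 10 in any cell. The glutamate phenotype of these cells was thus read almost wholly from Slc17a6.

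Slc32a1 was found in a minority of cells and at low levels. In embryos it was over 10 in 8.63% (4.54 to 14.6), 3.57% (1.17 to 8.14) and 2.14% (0.586 to 5.39) of Pitx3eGFP/wt cells in order of age. The postnatal shares were 6.72% for P1 (4.03 to 10.4), 7.78% for P7 (3.18 to 15.4) and 13.5% for P90 (10.01 to 17.7). From E18.5 to P90 the difference was 11.4 points (6.78 to 15.7), while P90 and E13.5 differed by 4.91 points with an interval that held 0 (−1.81 to 10.4). The latter value was −2.10 points at an RPKM over 1, and 6.65 points (0.184 to 11.9) with each cell thinned to the same number of reads. In the positive P90 cells the median RPKM was 23.9 and the highest value 149.8, near the threshold compared with 215.2 for Slc17a6. In the oligodendrocyte-like cells left out, which stand in here for cells that should lack the gene, 3 cells (1.85%) had it over 10.

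Gad2 was more widespread at P90 than before, and Gad1 was rare throughout. Gad2 was over 10 in 12.2% of Pitx3eGFP/wt cells at E13.5 (7.29 to 18.9), and in order of age the next shares were 14.3%, 18.2%, 21.6% and 20%, with 31.1% at P90 (26.1 to 36.4). P90 lay 18.8 points above E13.5 (10.8 to 25.7) and 9.44 points above P1 (2.28 to 16.3). In positive P90 cells Gad2 had the highest median RPKM of the 6 genes, 407 against 187.2 for Gad1. Gad1 was over 10 in 1.44%, 1.43%, 2.67%, 7.84%, 8.89% and 4% of cells from E13.5 to P90. Its P90 share did not differ beyond counting error from E13.5 (2.56 points, −1.45 to 5.48), and it lay 3.84 points below P1 (−8.02 to −0.0339). Oligodendrocyte-like cells left out had Gad1 over 10 in 4.94% (2.16 to 9.50) and Gad2 in 1.23%, so a Gad1 share of this size was also found in cells that were not kept as neurons. At P7, the stage with most of the cells left out, 8.89% of kept cells and 1.12% of those left out had Gad1 over 10 (kept minus left out 7.77 points, 1.18 to 15.5). At P1 the shares were 7.84% and 14.9% (−7.06 points, −20.1 to 1.36).

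In mean RPKM the P90 cells were higher than the E13.5 cells for all 4 members that could be compared. With a pseudocount of 1, P90 over E13.5 gave a log2 fold of 1.94 for Slc17a6, 0.49 for Slc32a1, 2.16 for Gad1 and 1.36 for Gad2. A rise of at least 2-fold was found for 3 of the 4 members with a mean RPKM of at least 1. Over all 15518 genes that reached this minimum, 21% rose by as much and 19.7% fell by as much, and no member fell. The median log2 fold was 1.65 over the 4 members and −0.07 over all genes.

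**Figure D2:**
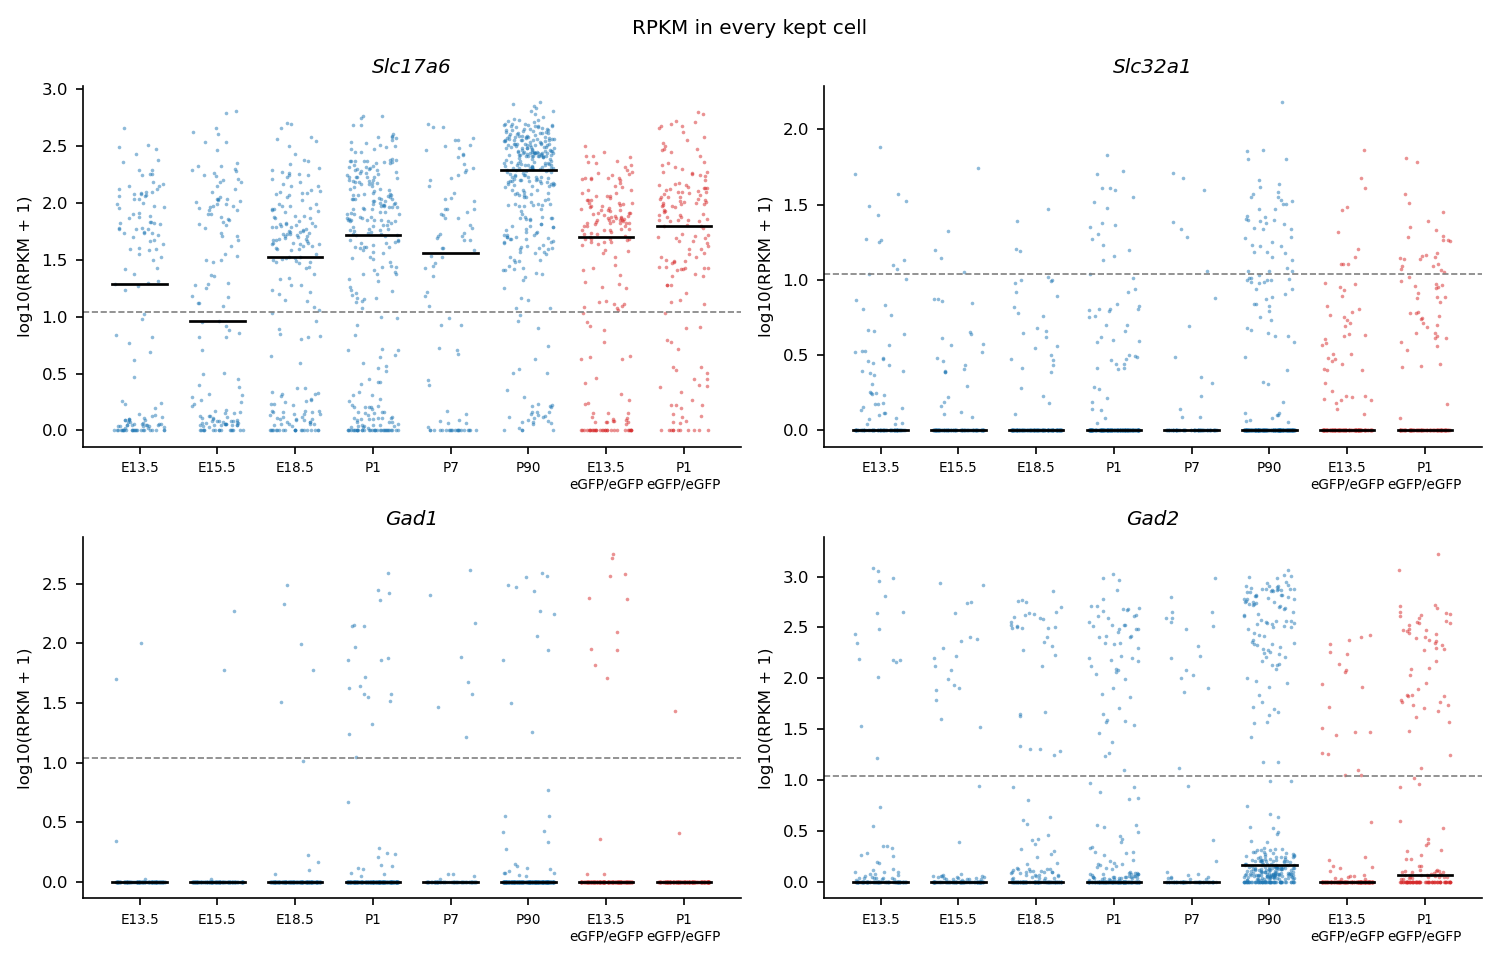
RPKM of Slc17a6, Slc32a1, Gad1 and Gad2 in each kept cell, as log10(RPKM + 1), by stage for Pitx3eGFP/wt (blue) and Pitx3eGFP/eGFP (red), with the group median as a black bar and the threshold of 10 as a dashed line. The medians of Slc32a1 and Gad1 are at 0 in every group, while that of Slc17a6 at P90 stands well above the threshold.

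The combination of Slc17a6 with Th was the most frequent class of cells at P90 when all sets of cells were pooled. Classing each cell by a glutamate transporter, by Th and by a GABA set (Slc32a1 together with Gad1 or Gad2), glutamate with Th and no GABA set held 46 cells at E13.5 (33.1%, 25.4 to 41.6). The shares were then 30.7%, 44.4%, 45.1% and 40% in order of age, and 51.1% at P90 (45.5 to 56.6). Th alone held 31 cells at P90 (9.54%, 6.57 to 13.3) and 35.3% of cells at E13.5. At P90, 1 cell had none of the 3 phenotypes. The sets of P90 cells differed: glutamate with Th and no GABA set held 57.4%, 58.7%, 46.2% and 32.6% of the cells in the sets P90_1, P90_2, P90_4 and P90_5, and in the last it was as frequent as glutamate alone (15 cells each). Th itself was over 10 in 77.7%, 78.3%, 62.4% and 52.2% of these sets. The P90 cells with both glutamate and Th had a median of 1698012 reads and 27.9% of entries detected. For the Th-only cells the values were 1792921 reads and 27.4%, and the part of depth in these classes was not tested.

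**Figure D3:**
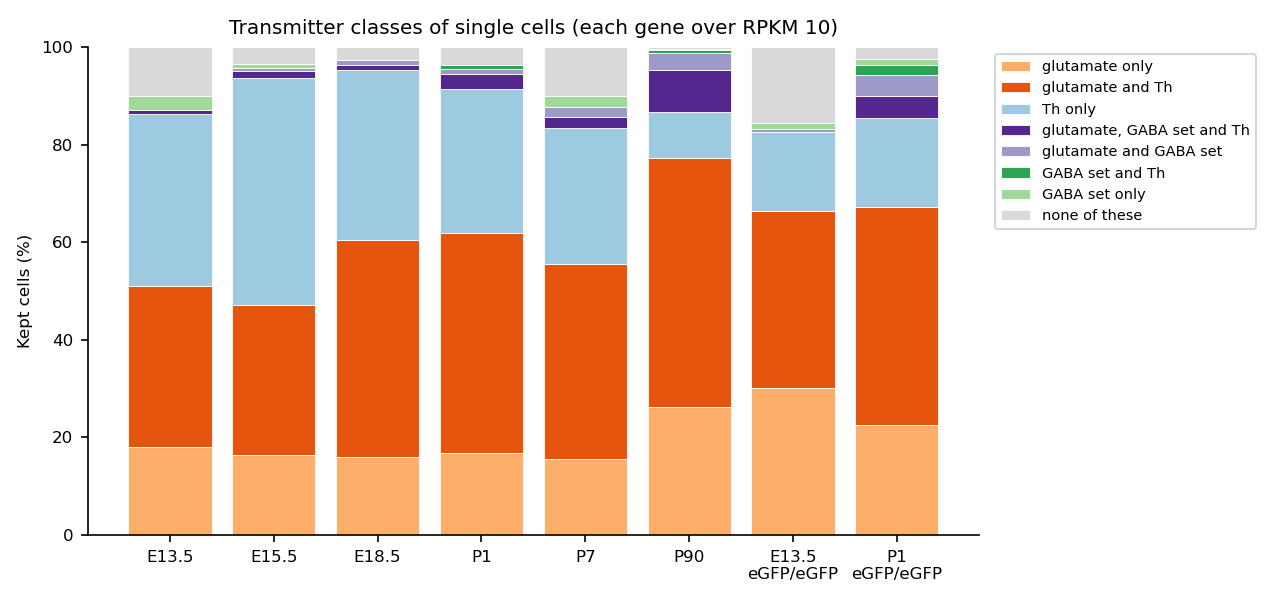
Share of kept cells (y axis, %) in each of 8 exclusive classes, stacked to 100%, for the 6 Pitx3eGFP/wt stages and the 2 Pitx3eGFP/eGFP groups, where the GABA set is Slc32a1 with Gad1 or Gad2. The Th-only class is narrowest at P90 (9.54%), and the classes with a GABA set are widest at P90 and in Pitx3eGFP/eGFP cells at P1.

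At 4 of the 6 stages Slc17a6 was less frequent in cells with high Th than in cells without Th. A glutamate transporter was found in 48.96% of Th cells and 58.1% of other cells at E13.5. The pair was 40.9% and 80% for E15.5, 56.7% and 86.5% for E18.5, and 61.4% and 82.8% for P1. At P7 it was 60.3% and 59.3%, and at P90 85.5% and 97.96%. Th was then split at 150, the level that the study's methods use for high expression of its subgroup genes. Comparing cells with Th over 150 with cells at or under 10, the Slc17a6 share was lower by 40.8 points at E15.5 (−54.6 to −20.9). The difference was −32.5 points at E18.5 (−43.8 to −16.0), −25.0 at P1 (−35.7 to −11.4) and −15.9 at P90 (−22.4 to −8.83). At E13.5 and P7 the intervals held 0 (−11.5 points, −28.2 to 6.53, and −3.12 points, −23.8 to 19.01). The level followed the same order at P90: the median RPKM of Slc17a6 was 284.8 in cells with Th at or under 10, 262.4 with Th between 10 and 150, and 97.01 with Th over 150. In the 4 sets of P90 cells the difference in share was −19.05, −11.1, −15.8 and −19.3 points, all of 1 sign, and 2 of the 4 intervals held 0.

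Cells with the full dopamine set, Th with Slc6a3 and Slc18a2 all over 10, carried a glutamate transporter more often at P90 than at E13.5. Of these, 4 of 33 had one at E13.5 (12.1%, 3.403 to 28.2) and 65 of 96 at P90 (67.7%, 57.4 to 76.9). Between them the shares were 19.1%, 44.6%, 50.8% and 46.3% in order of age. In the remaining cells the shares were 64.2% at E13.5 and 98.3% at P90. The dopamine transporter itself was over 10 in 69 P90 cells with Slc17a6 (23.8%) and in 94.3% of the 35 without, a difference of −70.5 points (−76.6 to −56.6).

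**Figure D4:**
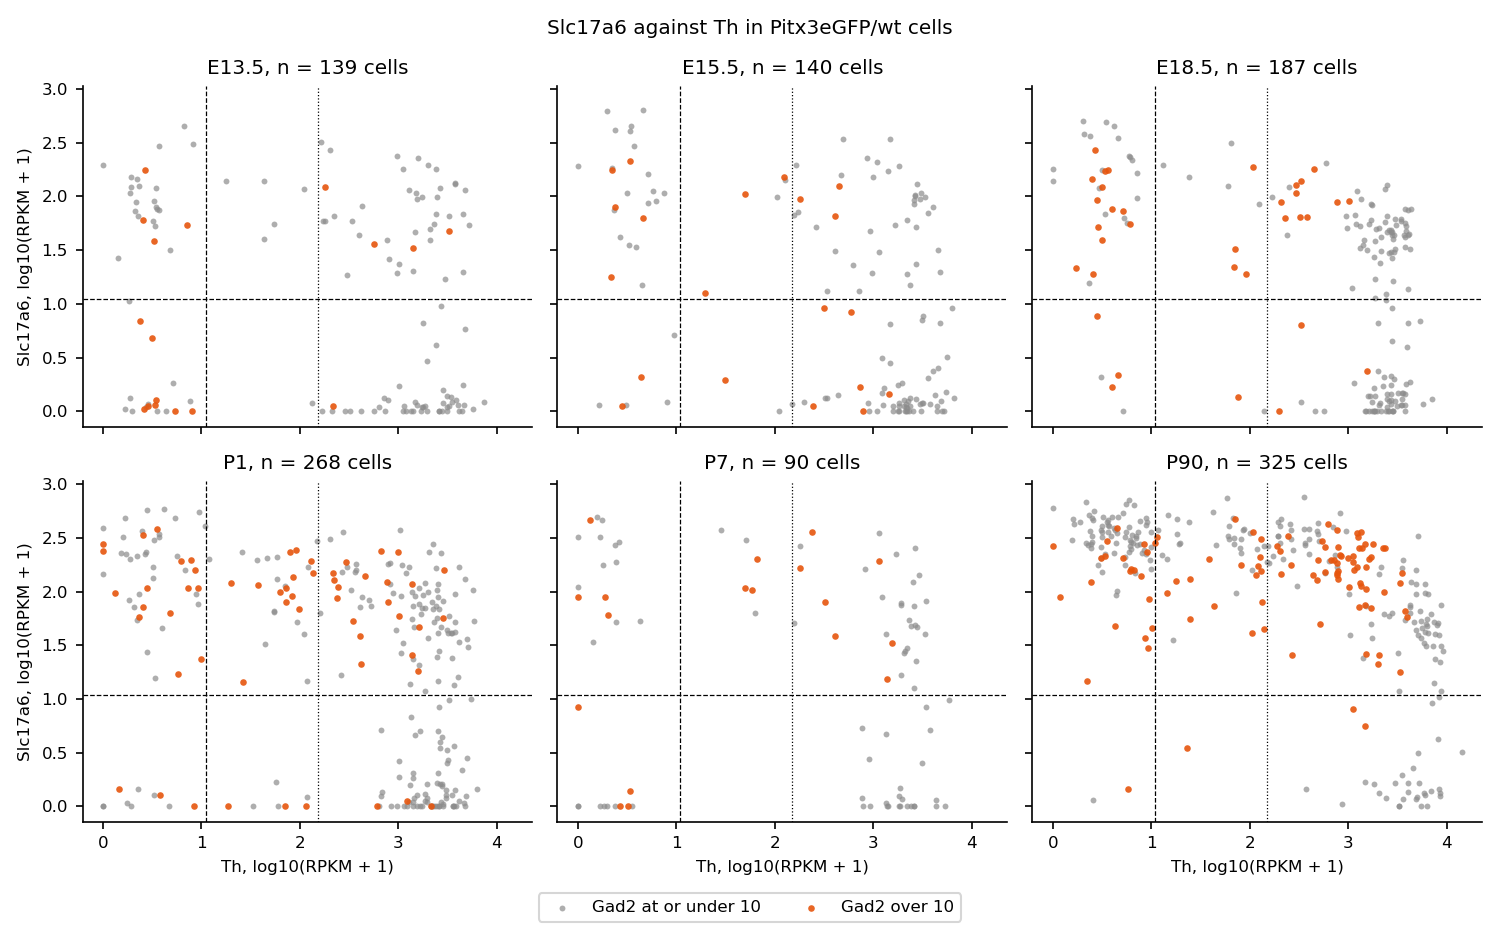
Slc17a6 against Th in each Pitx3eGFP/wt cell, both as log10(RPKM + 1), 1 panel per stage, with cells over 10 for Gad2 in orange, dashed lines at an RPKM of 10 and a dotted line at a Th of 150. At P90 most cells with high Th also lie above the Slc17a6 threshold (82.02%), while 2 of the 35 cells below it lack Th.

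At P90 Slc32a1 was found mostly in cells with Gad2. Of 44 P90 cells with Slc32a1, 42 also had Gad2 (95.5%, 84.5 to 99.4), against 20.996% of cells without Slc32a1. Gad1 was over 10 in 0 of the 44 (3 counts would be 6.82%), where the product of the shares gives 1.76 cells. Of the P90 cells without Slc32a1 4.63% had Gad1, and the interval of that difference held 0 (−4.63 points, −7.75 to 3.63). The reverse share was lower: 41.6% of P90 cells with Gad2 had Slc32a1. Slc32a1 with Gad2 was 3.07 times as frequent at P90 as the product of the 2 shares, 3.34 times at P1 and 5.50 times at E18.5, where the pair numbered 4 cells. At E13.5, 5 of 12 Slc32a1 cells had Gad2 (41.7%, 15.2 to 72.3). Over all Pitx3eGFP/wt cells 3 of 90 Slc32a1 cells had Gad1, and 74 had Gad2.

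Most GABA-set cells at P90 also carried Slc17a6. The set was found in 42 P90 cells (12.9%, 9.47 to 17.1), and 39 of these had a glutamate transporter (92.9%, 80.5 to 98.5). The size of the set depended on the threshold, with 21.2% of P90 cells at an RPKM over 1 and 1.54% at an RPKM over 50, where 95.7% and 80% of its cells had Slc17a6. Of the other P90 cells 88.7% did, and the interval of the difference held 0 (4.16 points, −8.12 to 10.5). Th was over 10 in 30 of the 42 (71.4%) and in 69.6% of the other P90 cells (1.82 points, −14.0 to 14.5). A glutamate transporter, the GABA set and Th were found at once in 28 cells (8.62% of all P90 cells, 5.80 to 12.2). Of the 42 cells, 9 had the full dopamine set, Th with Slc6a3 and Slc18a2. The GABA set was found in 9.38% of cells with the full dopamine set and 14.4% of the others (−5.04 points, −11.8 to 3.44). Earlier the set was rare, with 5, 4, 4, 13 and 6 cells in order of age from E13.5 to P7, or 3.597%, 2.86%, 2.14%, 4.85% and 6.67%. At E13.5 just 1 of the 5 had a glutamate transporter, and at P1 11 of 13 did. The P90 cells with a glutamate transporter, the GABA set and Th had a median of 1862415 reads and 28.9% of entries detected. For cells with glutamate and Th the values were 1698012 reads and 27.9%, so the cells with all 3 were slightly deeper. No doublet caller was run, and the share of doublets in these classes was not tested. Among markers of other cell types, Cnp of 12 oligodendrocyte markers and Aldoc of 6 astrocyte markers were lower in the GABA-set cells beyond counting error, and 0 of 5 microglia, 4 endothelium and 4 pericyte markers differed. The summed RPKM of these cells over the 12 oligodendrocyte markers had a median of 3.11 (0 to 152.3) against 17.97 (0 to 3630) in the other P90 cells, and over the 6 astrocyte markers 11.8 against 145.01. All 5 microglia markers were at 0. Their part in the result was not tested.

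The share of Gad2 was lower in Th cells than in others at E13.5, E18.5 and P1. At P90 it was higher at the Th threshold of 10, but other measures of the same relation did not go that way. Gad2 was over 10 in 5.21% of Th cells and 27.9% of other cells at E13.5, in 12% and 43.2% at E18.5, and in 18.6% and 32.8% at P1, but in 34.8% and 22.4% at P90. The difference was −22.7 (−37.8 to −9.83), −31.2 (−47.7 to −15.4), −14.2 (−27.8 to −2.03) and 12.4 points (1.42 to 21.9) in turn. For E15.5 (−11.5 points, −29.7 to 2.17) and P7 (−13.8 points, −33.9 to 3.83) the intervals held 0. Across cells Spearman's rho between Gad2 and Th was −0.070 over the P90 cells, which differ in depth, and Pearson's r of log2(RPKM + 1) was 0.0061. In the full dopamine set, Th with Slc6a3 and Slc18a2, Gad2 was over 10 in 18.75% of 96 cells at P90, and in 36.2% of the other cells (−17.5 points, −26.7 to −6.74). By set of P90 cells, a split added after the values were seen, the Gad2 share in Th cells minus that in other cells was 16.6 (−6.65 to 32.7), 5.56 (−18.3 to 23.5), 26.5 (8.06 to 41.1) and −3.41 points (−29.5 to 23.1), so just P90_4 had an interval that left out 0. At P90 70 cells had Gad1 or Gad2 over 10 without Slc32a1, 69 of them with a glutamate transporter, 56 with Th and 64 with Slc18a2, the vesicular monoamine transporter. Of the other P90 cells 86.7% had a glutamate transporter and 67.1% had Th, and Slc18a2 was over 10 in 74.5% of all P90 cells.

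Most cells with a Gad gene had just 1 of the enzymes over 10, but over all stages the number with both did not differ beyond counting error from what the shares of the 2 genes give. Over all Pitx3eGFP/wt cells, 37 had Gad1 without Gad2 and 14 had both, where the product of the shares gives 11.01. Gad1 was over 10 in 5.65% of the Gad2 cells (3.12 to 9.29) and in 4.11% of the others, a difference of 1.54 points with an interval that held 0 (−1.17 to 5.31). At P90 99 cells had Gad2 without Gad1, 11 had Gad1 without Gad2 and 2 had both, where the product of the shares gives 4.04 cells with both (1.98% of Gad2 cells and 4.91% of the others had Gad1, −2.93 points, −6.87 to 2.47). At E13.5 the interval left out 0 in the direction of overlap, since the 2 cells with Gad1 both had Gad2 (11.8 points more Gad1 in Gad2 cells, 2.76 to 34.3), and at P1 7 cells had both against a product of 4.54. The Gad2 values in P90 cells with Gad2 alone ran from 13.9 to 1149 with a median of 419, and the Gad1 values in P90 cells with Gad1 alone from 17.2 to 359 with a median of 174.04. The class rule keeps the other enzyme at or under 10, and it was at most 0.369 for Gad1 in the former cells and at most 2.09 for Gad2 in the latter.

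Other genes in the P90 cells with Gad1 alone and with Gad2 alone are given side by side, and the small number of Gad1 cells leaves wide intervals. All 11 cells with Gad1 alone had Slc17a6 and Nxph4 (a neurexophilin that the study uses to name a subgroup), and none had Slc32a1 or Slc6a3. Of the 99 cells with Gad2 alone, 95 had Slc17a6, a share whose difference from the Gad1 cells held 0 (4.04 points, −21.96 to 9.93). In the same 99 cells 42 had Slc32a1 and 44 had Nxph4 (44.4%). Ebf3, a transcription factor, was over 10 in 61 of these 99 cells and in 2 of the 11. Slc18a2 was over 10 in 93 of 99 (93.9%) and in 5 of 11. As cells with Gad1 alone minus cells with Gad2 alone, the difference was 55.6 points for Nxph4 (27.9 to 64.95), −43.4 for Ebf3 (−59.3 to −12.3), −48.5 for Slc18a2 (−72.9 to −21.2) and −42.4 for Slc32a1 (−52.3 to −14.9). For Slc6a3 the interval held 0 (−20.2 points, −29.2 to 6.54). Nxph4 and Ebf3 are subgroup genes that the study chose on these cells, so their differences are not independent evidence. Over all P90 cells 60.9% had Nxph4. Over all Pitx3eGFP/wt stages, 0 of 37 cells with Gad1 alone had Slc32a1, which allows a share of up to 8.11%, and 30.3% of cells with Gad2 alone did.

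**Figure D5:**
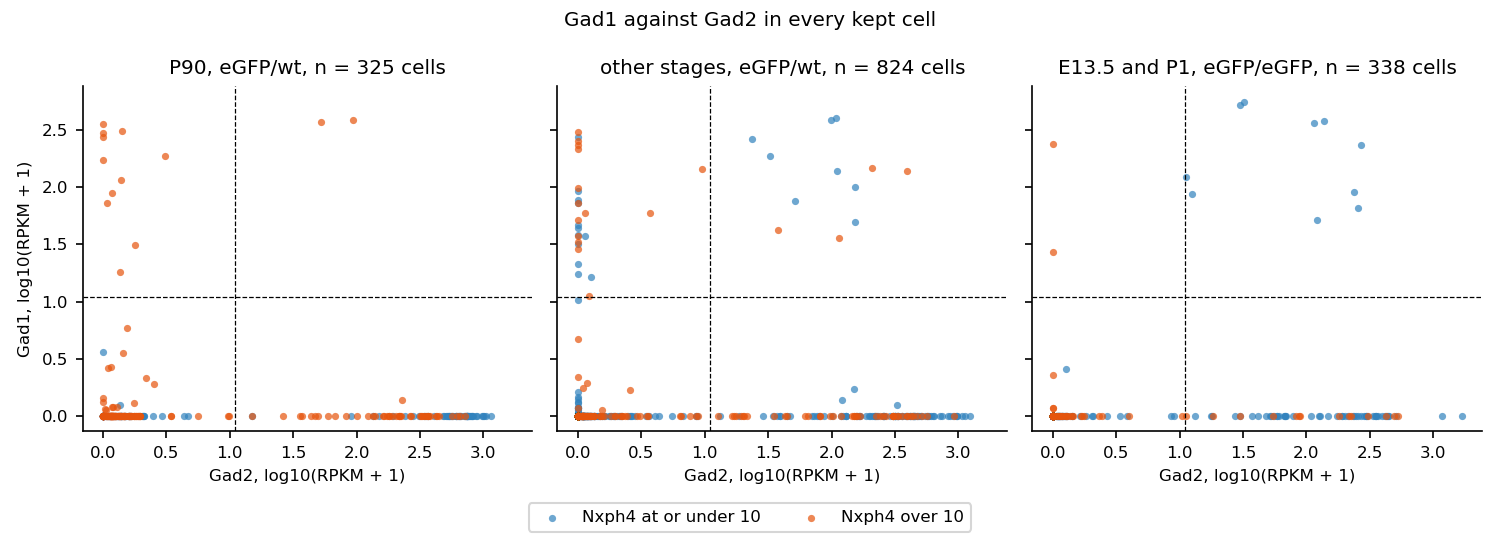
Gad1 against Gad2 in each kept cell, both as log10(RPKM + 1), for P90 Pitx3eGFP/wt cells, the other Pitx3eGFP/wt stages and all Pitx3eGFP/eGFP cells, with Nxph4 over 10 in orange and dashed lines at an RPKM of 10. Cells lie along either axis, 99 with Gad2 alone and 11 with Gad1 alone at P90, and the cells with both in the right-hand panel (10) are without Nxph4.

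By the likeness of their values across cells, Gad2 and Slc17a6 had different companions. Likeness was the mean of Pearson's r of log2(RPKM + 1) within the 3 largest Pitx3eGFP/wt groups, E18.5, P1 and P90, ranked over 12854 genes, and it shares cells and depth between genes. What is said of such a gene in cells with and without that member describes the same cells that chose it, and is no separate result. The genes most like Gad2 were Gm14204 (r = 0.698), Slc32a1 (0.681), Crhbp (0.581), which encodes a corticotropin-releasing hormone binding protein, Ptprq (0.529) and Ndst3 (0.504). Those most like Slc17a6 were Nxph4 (0.472), Zfp536 (0.433), Epb41l3 (0.431), Nova1 (0.427) and Sez6 (0.403). Slc32a1 and Gad1 were over 10 in too few cells at some stage to be ranked. At P90 Nxph4 was over 10 in 66.6% of Slc17a6 cells and 14.3% of the others, and in 7 of 44 Slc32a1 cells (15.9%) and 67.97% of the others.

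Gm14204, the transcript most like Gad2, is not a neighbour of Gad2 but of Slc32a1. It is annotated as a processed transcript on the minus strand of chr2:158595472-158610723, directly upstream of Slc32a1 (chr2:158610767-158615748, plus strand). The sequence between the start sites is shown because both transcripts begin from it, in opposite directions. In RefSeq on GRCm38.p6 the starts lie at 158610723 (minus strand) and 158610758 (plus strand), and capitals mark the 34 bases between them on the plus strand, within chr2:158610624-158610783.
Slc32a1 start region: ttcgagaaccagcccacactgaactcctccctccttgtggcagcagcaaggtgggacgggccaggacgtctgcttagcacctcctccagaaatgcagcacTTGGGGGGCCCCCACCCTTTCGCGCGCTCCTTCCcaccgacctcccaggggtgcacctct
A minus-strand start this close was found for 1.04% of 16540 start windows on the plus strand. Smart-seq2 does not mark strand, so reads over the ends of either transcript could not be assigned by strand.

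Most Slc32a1 cells had Gm14204 over 10 as well. At P90 it was over 10 in 37 of 44 Slc32a1 cells (84.1%, 69.9 to 93.4) and in 8.90% of the others. In Pitx3eGFP/eGFP cells at P1 the numbers were 25 of 26 and 19.5%. Over all Pitx3eGFP/wt cells Gm14204 was over 10 in 17.3% of 1149 cells, and Slc32a1 in 7.83%. By the choice of Gm14204 for its likeness to Gad2 over these cells, its shares by Gad2 at P90 (57.4% with and 1.79% without) are a description. Of the 13 P90 Gad1 cells 0 had it.

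Genes of the transmitter pathways were then compared at P90 between GABA-set cells and the rest, by lists of known roles. Among genes over 10 in at least 5% of P90 cells (12643 genes), the median difference in share was −0.57 points, and the interval left out 0 for 4.07% of the genes as higher and 5.51% as lower. Abat, the GABA transaminase that breaks GABA down, was over 10 in 40 of the 42 GABA-set cells. Of 11 genes for glutamate supply and uptake, 0 differed in either direction. Of 10 other transmitter genes, Ddc (aromatic amino acid decarboxylase) was higher by 24.5 points (13.4 to 30.3) and none was lower. Of the 10 dopamine neuron markers, a list that also holds Ddc, Ddc was higher and Foxa2 was lower.

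Factors known for GABA neurons were over 10 in few P90 cells or none. Of 10 (Gata2, Gata3, Tal1, Sox14, Nkx2-2, Lhx1, Lhx5, Dlx1, Dlx2 and Six3), 9 were over 10 in 0 P90 cells (3 counts would be 0.923% for each), and Lhx1 in 3. At that level no difference between GABA-set cells and the rest could be seen for the 9, and for Lhx1 the interval held 0. At P1 Tal1 was over 10 in 1 of 13 GABA-set cells, higher by 6.91 points (0.269 to 32.5) on that cell. A further list held 5 genes from the study's account of its subgroups (Nxph4, Aldh1a1, Vip, Ebf3 and Pitx3). Of these, Ebf3 was higher by 46.2 points (30.4 to 58.2) in GABA-set cells, and Nxph4 was lower by 53.6 points (−62.7 to −38.9). The study classed its clusters by Slc6a3, Nxph4, Aldh1a1, Vip and Gad2, and Gad2 is itself part of the GABA set. Nxph4 and Ebf3 were taken as subgroup markers by the study on these cells, so this is not independent evidence of their direction.

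Between P90 cells with Slc17a6 and the 35 without, the median difference over all genes was 5.71 points, with 22.1% of the genes higher and 2.69% lower beyond counting error. Of 11 glutamate supply and uptake genes, 2 were higher and 0 lower: Slc1a1 (neuronal glutamate transporter EAAC1) by 17.5 points (0.224 to 33.3) and Slc38a2 (glutamine transporter SNAT2) by 19.8 points (4.004 to 36.6). The list's median was 3.30 points, under that of all genes, so the count for this list is not read as a result about it. Of 8 factors known from glutamate neurons of the region, Lmx1a was higher by 29.3 points (11.7 to 43.2) and none was lower. Of 10 dopamine neuron markers, Nr4a2 and Lmx1a were higher, and Th, Slc6a3, Slc18a2, Ddc and En1 were lower. Of 10 other transmitter genes Slc6a9 (a glycine transporter) was higher by 16.5 points (1.19 to 25.3), and Slc6a3, Ddc and Hdc were lower. Of 6 neuron markers Snap25 was higher and Syt1 lower, and of the 10 GABA neuron factors Lhx1 was lower. Among markers of other cells, the microglia gene Csf1r was lower on 1 cell of the 35 (−2.86 points, −14.5 to −0.167), and 0 of 6 astrocyte, 4 endothelium and 4 pericyte markers differed. The oligodendrocyte genes Mbp (18.7 points) and Bcas1 (18.3 points) were higher in Slc17a6 cells, whose summed oligodendrocyte markers had a median of 17.99 against 1.78 in the rest, and their part in the result was not tested.

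Loss of Pitx3 was compared at P1, in cells that all carried spike-in RNA, 94 Pitx3eGFP/wt cells and every Pitx3eGFP/eGFP cell. These Pitx3eGFP/wt cells were a single set by their titles, P1_1, which held none of the Pitx3eGFP/eGFP cells. Genotype and library set can therefore not be told apart at P1. The GABA genes Slc32a1 and Gad2 were in more Pitx3eGFP/eGFP cells, and Gad1 was in fewer at the threshold of 10. Slc32a1 was over 10 in 4 and 26 cells (4.26% and 16.4%, a difference of 12.1 points, 4.18 to 19.1). Its share was 16.9% and 15.9% in the 2 Pitx3eGFP/eGFP sets whose titles share a number. In the P1 Pitx3eGFP/wt cells without spike-in RNA the Slc32a1 share was 8.05% (4.47 to 13.1). Gad2 was over 10 in 21.3% and 33.3% (12.1 points, 0.489 to 22.5). In the Pitx3eGFP/eGFP sets P1H_1 and P1H_2 its share was 31.2% (21.1 to 42.7) and 35.4% (25.1 to 46.7). The Slc32a1 and Gad2 share differences were not recomputed at other thresholds, after thinning or with other cell filters. Gad1 was over 10 in 6 and 1 cells (6.38% and 0.629%, −5.75 points, −12.6 to −1.30). Without the first Pitx3eGFP/eGFP set, P1H_1, the Gad1 difference was −5.16 points with an interval that held 0 (−12.1 to 1.21), and at an RPKM over 50 it was −2.13 points (−7.43 to 0.691). Slc17a6 was over 10 in 68.1% and 76.1% (8.02 points, −3.16 to 19.6), and with all P1 Pitx3eGFP/wt cells the difference was 10.1 points (1.06 to 18.4). At an RPKM over 1 it was 11.7 points (1.77 to 22.4).

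The makeup of the P1 cells by dopamine genes differed as well. The full dopamine set was found in 57.4% of Pitx3eGFP/wt and 18.2% of Pitx3eGFP/eGFP cells (−39.2 points, −50.1 to −27.1), and Th in 85.1% and 69.2%. The cells were therefore also compared with and without this set, a split made after the values were seen, and one whose share itself differs by genotype. With the set, Gad2 was over 10 in 4 of 54 and 7 of 29 cells (16.7 points, 1.08 to 35.3) and Slc32a1 in 2 and 7 (20.4 points, 5.60 to 38.6). Without it the intervals held 0 for Gad2 (−4.62 points, −21.8 to 11.5) and Slc32a1 (9.62 points, −2.95 to 17.6). For Gad1 the difference was −5.56 points with the set (−15.1 to 6.70) and −6.73 without it (−19.1 to −0.719), and for Slc17a6 both intervals held 0 (9.71 points, −12.1 to 28.8, and −2.31 points, −14.7 to 13.7).

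At P1 the Pitx3eGFP/eGFP cells held 53 cells with Gad2 alone, 0 with both enzymes and 1 with Gad1 alone at an RPKM of 26.1. With 1 Gad1 cell the product of the shares gives 0.333 cells with both, so the overlap could not be read. The GABA set was found in 19 Pitx3eGFP/eGFP cells (11.9%, 7.35 to 18.0) and 3 of 94 Pitx3eGFP/wt cells (3.19%, 0.663 to 9.04). Of the 19, 14 had a glutamate transporter and 10 had Th. Slc17a6 again was less frequent with high Th in Pitx3eGFP/eGFP cells, by 19.6 points (−31.8 to −4.70). Among all 15589 genes tested at P1, 8.24% were higher by 2-fold or more in Pitx3eGFP/eGFP cells and 2.35% were lower. Of the 4 members tested, Slc32a1 was higher (log2 fold 1.17) and Gad1 lower (−2.26), with Slc17a6 at 0.45 and Gad2 at 0.80. The mean RPKM of Slc32a1 was 1.38 in the Pitx3eGFP/wt cells with spike-in and 4.36 in Pitx3eGFP/eGFP cells. In all P1 Pitx3eGFP/wt cells it was 2.50, and against these the rise was less than 2-fold. Without P1H_2 the Gad2 value was 1.07, past 2-fold, and without P1H_1 it was 0.49. The median over the members was 0.63 and over all genes 0.08.

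At E13.5 Slc17a6 was in more Pitx3eGFP/eGFP cells, the intervals for Slc32a1 and Gad2 held 0, and that for Gad1 left out 0 at the reported settings but not under others. Slc17a6 was over 10 in 51.8% of Pitx3eGFP/wt and 67.04% of Pitx3eGFP/eGFP cells (15.2 points, 4.38 to 25.7). Slc32a1 was over 10 in 8.63% and 6.15% (−2.49 points, −8.92 to 3.31) and Gad2 in 12.2% and 11.7% (−0.498 points, −8.08 to 6.61). The Gad2 level was lower, with a mean RPKM of 52.7 and 11.8. Gad1 was over 10 in 2 and 11 cells (1.44% and 6.15%, 4.71 points, 0.174 to 9.35). Without the set 13H_4 the Gad1 difference was 3.996 points (−0.791 to 10.7), and without 13H_5 it was 3.66 points (−0.767 to 8.41), both with intervals that held 0. The interval also held 0 at an RPKM over 1 (4.55 points, −0.349 to 9.41) and with oligodendrocyte cells left out cell by cell (3.65 points, −0.720 to 8.07), while at an RPKM over 50 the difference was 5.43 points (1.22 to 9.99). No Pitx3eGFP/wt cell at E13.5 carried spike-in RNA and all Pitx3eGFP/eGFP cells did, so genotype and library set cannot be told apart at this stage, and median reads were 2354720 and 753256. The full dopamine set was found in 23.7% and 2.79% of these cells (−20.9 points, −28.8 to −13.7), and Th in 69.1% and 52.5%. In the cells without that set the intervals of the genotype difference held 0 for Slc17a6 (64.2% and 67.2%, 3.09 points, −8.09 to 14.6) and Gad1 (4.44 points, −1.04 to 9.27), and with it Slc17a6 was over 10 in 4 of 33 and 3 of 5 cells (47.9 points, 7.94 to 77.05).

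Most Gad1 cells of Pitx3eGFP/eGFP embryos had Gad2 and lacked Slc17a6. Of the 11, 10 also had Gad2, where the product of the shares gives 1.29, and their Gad1 values ran from 50.3 to 563. Of these 10, 1 had Slc17a6, 1 had Slc32a1, 2 had Th, 2 had Slc18a2, 0 had Slc6a3 and 0 had Nxph4. Gm14204 was over 10 in 8 of them. EGFP was over 10 in 4 of them (40%, 12.2 to 73.8) and in 91.1% of cells with neither enzyme. No cell was left out here for low EGFP, and the Gad1 difference was not recomputed without such cells. Among all 14527 genes tested at E13.5, 4.41% were higher by 2-fold or more and 4.61% lower. Gad1 was higher (log2 fold 2.96) and Gad2 lower (−2.07) among the 4 members tested, with Slc17a6 at 0.21 and Slc32a1 at −0.27. The Gad1 fold rested in part on single sets of cells, with a log2 value of 2.28 without 13H_4, 2.84 without 13H_5 and 3.48 without 13H_6, and mean RPKM was 21.7, 24.6 and 4.26 in these sets. Gad2 ran from −2.30 to −1.73 in the same way. In these embryos Slc17a6 was over 10 in 68.8% of 77 cells with high Th and 64.7% of 85 without Th, and the interval of the difference held 0 (4.13 points, −10.3 to 18.2).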

How the data were processed

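Smart-seq2 libraries of 1699 single cells were analysed from 2 deposited values per gene entry and cell: the read counts, which the authors did not normalize, and the RPKM, which the authors calculated with rpkmforgenes by gene model length and mappable reads. The authors aligned 43 bp reads with STAR to mm10 merged with eGFP and ERCC sequences, kept uniquely mapping reads and used Ensembl release 69. Reads that fall in stretches shared by several genes are lost in this way. Of the reads, 0.221% lay on entries without a symbol.

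The cell filter required over 100000 reads, with 15% or more of 31526 entries detected (3.4% at P90). Alignment-quality limits of the study were not applied. The study removed cells that clustered with cells lacking eGFP and high in Olig1. Here EGFP was not used for this, and more Pitx3eGFP/eGFP cells were kept than in the study. Log2 RPKM (pseudocount 1) was clustered (50 components, 4 t-SNE maps with perplexity 30, 5 neighbours, infomap with 10 trials and seed 1) into 43 clusters before P90 and 18 at P90. Clusters with at least 3 of 12 oligodendrocyte markers over an RPKM of 10 in most cells were left out (162 cells, of which 89 at P7 and 47 at P1), and 1487 cells remained. Most of the cells left out also had 3 or more of 6 astrocyte markers (76.5%). Of the cells kept, 68 had 3 or more oligodendrocyte markers, 19 of them at P7. Reads per kept cell ran from 100007 to 8634201. No doublet caller was run.

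Cells were grouped by the labels' age and genotype. Kept Pitx3eGFP/wt cells numbered 139, 140, 187, 268, 90 and 325 in order of age, and Pitx3eGFP/eGFP cells 179 (E13.5) and 159 (P1). Shares over an RPKM of 10 have Clopper-Pearson 95% intervals and differences have Newcombe 95% intervals. For a share of 0 the share of 3 counts in the total is printed, which is under the exact upper limit. Folds are of mean RPKM plus 1, over genes whose mean reached 1 in either group, with 2-fold as the limit. The folds and intervals were tested on simulated data. The members and the gene lists were chosen with earlier results of these data known. The genes named are the members, Th, the listed pathway, factor, subgroup and marker genes, and the 5 genes most like each member that was over 10 in at least 5% of the cells at E18.5, P1 and P90. Crhbp and Gm14204 were followed further after that ranking had been seen. Slc18a3, on the list of other transmitters, was not analysed here, and the list of genes for GABA uptake and breakdown is not reported here as a whole. Alternatives were the threshold (1 and 50), thinning to 100000 reads, the cell filters, the pseudocount (0.1), the minimum and leaving out sets of cells. Leaving out Pitx3eGFP/eGFP sets was added after the data had been seen, as was the use of both oligodendrocyte filters together.

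Positions are from GENCODE vM21. Shared stretches were searched in coding transcripts, and start sites came from RefSeq. Python 3.11.15, NumPy 2.4.6, pandas 2.3.3, SciPy 1.17.1, scikit-learn 1.9.0, igraph 0.11.9 and Matplotlib 3.10.9 were used.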

Additional observations from a re-analysis of the deposited data

Results flagged for a closer look

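The relation of Gad2 to Th, at a Th threshold of 10, had opposite signs at different ages in Pitx3eGFP/wt cells. The share of cells with Gad2 over an RPKM of 10 was lower in Th cells than in other cells by 22.7 points at E13.5 (−22.7), by 31.2 points at E18.5 (−31.2) and by 14.2 points at P1 (−14.2), and was higher by 12.4 points at P90. At P90 Spearman's rho between the genes was −0.070, and Gad2 was over 10 in fewer cells of the full dopamine set, Th with Slc6a3 and Slc18a2 (18.75% against 36.2%, −17.5 points, −26.7 to −6.74). The difference between stages was not tested, since each stage is 1 sample, and the dissociation kit and the use of spike-in RNA differ between ages.

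The Gad1 share was higher in Pitx3eGFP/eGFP than in Pitx3eGFP/wt cells at E13.5 (4.71 points) and lower at P1 (−5.75 points). The difference between the stages was not tested. The counts behind it are small, 2 and 11 cells at E13.5 and 6 and 1 at P1. Under some other settings either interval held 0, and genotype and library set cannot be told apart at E13.5 or at P1.

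Members were also read in the oligodendrocyte-like cells that were left out of the comparisons. Slc17a6 was over 10 in 6.79% of these cells and Gad1 in 4.94%, both above the 1.85% that a count of 0 allows. The 11 left-out cells with Slc17a6 had 5 of 6 neuron markers over 10 in most of them, against 1 of 6 in the rest. Of the Gad1 cells left out, 7 were among the 47 from P1, where the share was 14.9% against 7.84% of the kept cells (kept minus left out −7.06 points, −20.1 to 1.36), and Gad2 was over 10 in 0 of those 47.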

How the results depend on the processing

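No paired analysis was possible because replicate numbers only name cells in accession order and no result comes from a test. A total of 13 shares and differences, the folds and the likeness ranking were recomputed under the alternatives. The genotype differences in Slc32a1 and Gad2 share were not among the 13. No share or difference whose interval left out 0 changed sign, but 10 intervals came to lie on another side of 0. The Gad1 difference at E13.5 came to hold 0 at a threshold of 1 (4.55 points), with the cell-by-cell oligodendrocyte filter (3.65), with both filters (3.64) and without 13H_4 or 13H_5. The Gad1 difference at P1 came to hold 0 at a threshold of 50 (−2.13) and without P1H_1. Intervals that held 0 left it out for Slc32a1 between P90 and E13.5 after thinning (6.65 points, 0.184 to 11.9) and for Slc17a6 at P1 at a threshold of 1 (11.7) and with all P1 cells (10.1). The 9 values that moved outside the interval of the value reported came from the RPKM threshold, and none from thinning, the cell filters or leaving out a set of cells. With a threshold of 1, the Slc32a1 difference between P90 and E13.5 was −2.10 points, the Slc17a6 share among Th cells at P90 was 91.8%, the GABA set was found in 21.2% of P90 cells and in 21.1% of Th cells. With a threshold of 50, the Slc17a6 share among Th cells was 67.6% and its difference between high and low Th −29.4 points, the GABA set was found in 1.54% of P90 cells and in 0.966% of Th cells, and 80% of GABA-set cells had Slc17a6. The level of Slc32a1 lies near the threshold, so the number of GABA-set cells is set by that choice. Among the alternatives chosen after seeing the data, the genotype differences came to hold 0 in cells without the full dopamine set for Slc17a6 (3.09 points) and Gad1 (4.44) at E13.5 and for Gad2 (−4.62) and Slc32a1 (9.62) at P1, and in cells with it for Gad1 at P1 (−5.56). Leaving out 1 set of cells at a time gave P90 minus E13.5 differences of 35.7 to 38.2 points for Slc17a6, 3.55 to 5.96 for Slc32a1, 2.02 to 2.86 for Gad1 and 17.5 to 20.1 for Gad2. In the same way the Slc17a6 share among Th cells was 84.02% to 86.7%, its difference by Th −17.6 to −14.8 points, the GABA-set share 11.5% to 13.9%, Slc17a6 among GABA-set cells 90% to 93.8% and the GABA set among Th cells 12.4% to 14.3%. The genotype differences were 5.09 to 11.1 points for Slc17a6 and −6.38 to −5.16 for Gad1 at P1, and 13.4 to 16.4 for Slc17a6 and 3.66 to 6.82 for Gad1 at E13.5. Of the 5 genes most like Slc17a6 and Gad2, 4 and 5 remained with a pseudocount of 0.1.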
